A study of Homo sapiens with 2 samples.

Results

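The clustered histone genes encode the H1 linker histones and the H2A, H2B, H3 and H4 core histones that package newly made DNA. Their members here are the genes whose symbol starts with HIST1H, HIST2H, HIST3H or HIST4H and that are listed in the count tables of both libraries. They number 57 of the 16387 genes in both tables. Of these 5 are H1, 14 H2A, 17 H2B, 11 H3 and 10 H4 genes. On GRCh38 (GENCODE v29) 45 lie on chromosome 6, 11 on chromosome 1 and 1 on chromosome 12, and those on chromosome 6 stand between positions 26017085 and 27893843. One further symbol, HIST1H4L, was listed for library 2 only, with 3 UMIs, and was left out.

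The cells are MCF10A, a line of human breast epithelium that is immortal but not tumorigenic and needs EGF to divide. Unstimulated cells (0 h) and cells with EGF for 15 h, 20 h or 30 h were profiled by single-cell RNA sequencing, together with cells that received a MEK or a PI3K inhibitor at 15 h and were harvested at 20 h or 30 h. All inhibitor cultures also held EGF, and which compounds were used is not stated in the sources used here. Each of the 2 libraries pools all 8 conditions of 1 biological replicate, so n = 2 for each condition.

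In most histone genes of these clusters transcription is tied to DNA synthesis: NPAT at the histone locus body drives it, and the mRNA ends in a stem-loop that is bound by SLBP instead of a poly(A) tail. A dedicated processing complex cuts the transcript just past the stem-loop, and the mRNA is degraded when DNA synthesis stops. Some of the same genes also give polyadenylated transcripts from a signal further downstream, which have been described in cells that stop dividing. Libraries primed on poly(A) tails count chiefly such transcripts, so that UMI counts in them do not measure all mRNA from these genes. How the present libraries were primed is not stated in the labels.

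The annotated ends of some of the genes show this arrangement. A search of the GENCODE v29 transcripts for the 16-base stem-loop GGNNCTTTTNAGNNCC, on the sense strand only and with the N positions of the stem able to pair, found it in 26 of the 57 genes. In all, 42 of 57133 annotated genes held it (0.0735%). The 435-base model of HIST1H4C (chromosome 6, 26103876 to 26104310) held 0 matches. Other models without a match are shorter still, such as 393 bases for HIST1H2AB and 312 for HIST1H4A. A model that stops before a loop cannot show it, so the 26 may be fewer than the genes that have one. The loops of 6 genes that changed are printed with the stem in capitals and the loop in lower case, because the annotated transcript runs on past each of them.
HIST1H2AC, chr6:26124669-26124684, plus strand: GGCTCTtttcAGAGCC
HIST3H2A, chr1:228457369-228457384, minus strand: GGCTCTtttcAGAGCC
HIST1H2BC, chr6:26123472-26123487, minus strand: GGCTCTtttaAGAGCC
HIST1H2BD, chr6:26158587-26158602, plus strand: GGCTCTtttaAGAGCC
HIST1H4H, chr6:26285131-26285146, minus strand: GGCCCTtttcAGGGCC
HIST2H4A, chr1:149833032-149833047, plus strand: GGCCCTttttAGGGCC
Past these loops the shortest annotated transcript goes on for 1114 bases in HIST1H2AC, 390 in HIST3H2A, 116 in HIST1H2BC, 39 in HIST1H2BD, 18 in HIST1H4H and 194 in HIST2H4A. Among the 57 genes, 20 have an annotated transcript with AATAAA or ATTAAA in its last 50 bases and 13 have one with more than 1 exon.

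Start regions were read from RefSeq (GRCh38.p14), which gave 44 of the 57 genes a window from 250 bases before to 50 bases after the start. Searched on both strands, TATAAA was in 29 of the 44 windows (11.5% of 35116 promoters of all genes) and CCAAT in 36 (34.6%). The octamer ATTTGCAT was in 16 windows (1.77% of all promoters), 9 of 13 for H2A and 7 of 10 for H2B. The H1 box AAACACA was in all 5 H1 windows (5.64% of all promoters), and CCAAT was in 0 of 8 H4 windows. The forkhead motif GTAAACA was in 0 of 44 (3.42% of all promoters). The windows of 4 genes are printed, those of the H2A, H2B and H1 genes that rose with the PI3K inhibitor and have an entry, with these motifs in capitals.
HIST1H2AC, chr6:26123922-26124221, plus strand: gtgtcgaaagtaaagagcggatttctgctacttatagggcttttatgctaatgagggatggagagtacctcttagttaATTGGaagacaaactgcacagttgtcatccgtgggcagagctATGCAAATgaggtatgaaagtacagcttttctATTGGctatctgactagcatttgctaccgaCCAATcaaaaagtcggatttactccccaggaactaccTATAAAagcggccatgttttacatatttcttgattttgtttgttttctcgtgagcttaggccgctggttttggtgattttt
HIST3H2A, chr1:228457824-228458123, minus strand: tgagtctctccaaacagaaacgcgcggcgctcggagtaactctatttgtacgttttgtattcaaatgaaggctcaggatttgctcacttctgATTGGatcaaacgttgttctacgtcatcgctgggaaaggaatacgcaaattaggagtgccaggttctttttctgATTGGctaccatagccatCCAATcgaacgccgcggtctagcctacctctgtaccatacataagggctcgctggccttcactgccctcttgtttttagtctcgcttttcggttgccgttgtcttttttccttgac
HIST1H2BJ, chr6:27132746-27133045, minus strand: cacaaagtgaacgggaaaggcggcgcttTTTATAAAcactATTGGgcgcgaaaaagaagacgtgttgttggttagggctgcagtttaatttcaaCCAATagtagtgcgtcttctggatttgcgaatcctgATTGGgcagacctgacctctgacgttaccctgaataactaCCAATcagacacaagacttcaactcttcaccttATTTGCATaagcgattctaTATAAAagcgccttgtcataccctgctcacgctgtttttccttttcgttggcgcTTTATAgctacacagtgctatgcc
HIST1H1C, chr6:26056421-26056720, minus strand: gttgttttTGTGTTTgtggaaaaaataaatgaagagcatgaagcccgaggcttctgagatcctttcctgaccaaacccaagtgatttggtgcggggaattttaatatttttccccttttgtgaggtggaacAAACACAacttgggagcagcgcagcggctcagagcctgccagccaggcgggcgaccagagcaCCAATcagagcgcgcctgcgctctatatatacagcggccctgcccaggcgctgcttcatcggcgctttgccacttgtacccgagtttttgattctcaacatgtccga
The windows of HIST1H2AC, HIST3H2A and HIST1H2BJ each hold the GENCODE start of a neighbour on the other strand. HIST1H2BC starts 219 bases from HIST1H2AC, HIST3H2BB starts 234 bases from HIST3H2A and HIST1H2AG starts 292 bases from HIST1H2BJ. In the HIST1H2AC window the octamer lay 130 bases and the TATAAA match 31 bases before the start. The HIST3H2A window held 3 CCAAT matches and 0 of the other motifs.

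Library 1 held 2616 cells and 33089090 UMIs and library 2 held 2221 cells and 28542571 UMIs, with a median of 12259 and 12332 UMIs per cell and 0 cell barcodes shared. Of the barcodes listed for tag calling, 56.1% and 40.2% were called as doublets and are not in the count tables. Library 2 held 29 unstimulated cells and 64 cells at 15 h, so its values there rest on few UMIs. The epithelial markers KRT5, KRT14, KRT17 and KRT18 were at 188.1 CPM (counts per 1000000 UMIs, after TMM scaling) or more in every condition and library, whereas the epithelial adhesion genes CDH1 and EPCAM were at 11.9 to 79.5 and at 0.843 to 11.2 CPM. Among markers of other cell types, LYZ, PECAM1, COL1A1 and PDGFRB stayed at or under 6.75 CPM, and PTPRC, CD3E, VWF, CDH5 and COL1A2 were not analysed here. Decorin (DCN) was the exception at 5.68 to 109.6 CPM. The summed fibroblast markers, most of it DCN, were at 26.1 and 16.8 CPM with the PI3K inhibitor at 20 h and at 14.3 and 9.91 CPM with EGF alone. With the MEK inhibitor they were at 29.9 and 18.4 CPM at 20 h, and at 54.2 and 23.4 CPM at 30 h against 13.2 and 8.12 CPM with EGF alone. They were at 116.4 and 88.3 CPM in unstimulated cells, and their part in the results was not tested.

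The 57 genes together gave 8744 UMIs. HIST1H4C had 2579, HIST3H2A 1306, HIST1H2AC 1192 and HIST1H1C 955, which is 69% of the total in 4 genes. These are the members that reached 20 CPM in some condition. A further 14 passed the filter on low counts, HIST1H1A, HIST1H1B, HIST1H1D, HIST1H1E, HIST1H2AH, HIST2H2AC, HIST1H2BC, HIST1H2BD, HIST1H2BH, HIST1H2BJ, HIST1H2BN, HIST2H2BF, HIST1H3G and HIST1H4H, so 18 were tested. The other 39 did not pass and ranged from 3 UMIs (HIST1H2AM) to 71 (HIST1H2AG) over all cells. Summed over all 57 genes, the level with the PI3K inhibitor at 20 h (356.7 CPM in library 1 and 200.5 in library 2) was above that with EGF alone (92.8 and 109). At 15 h it was 67.4 and 48.3 CPM, the lowest of the 8 conditions in both libraries.

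**Figure D1:**
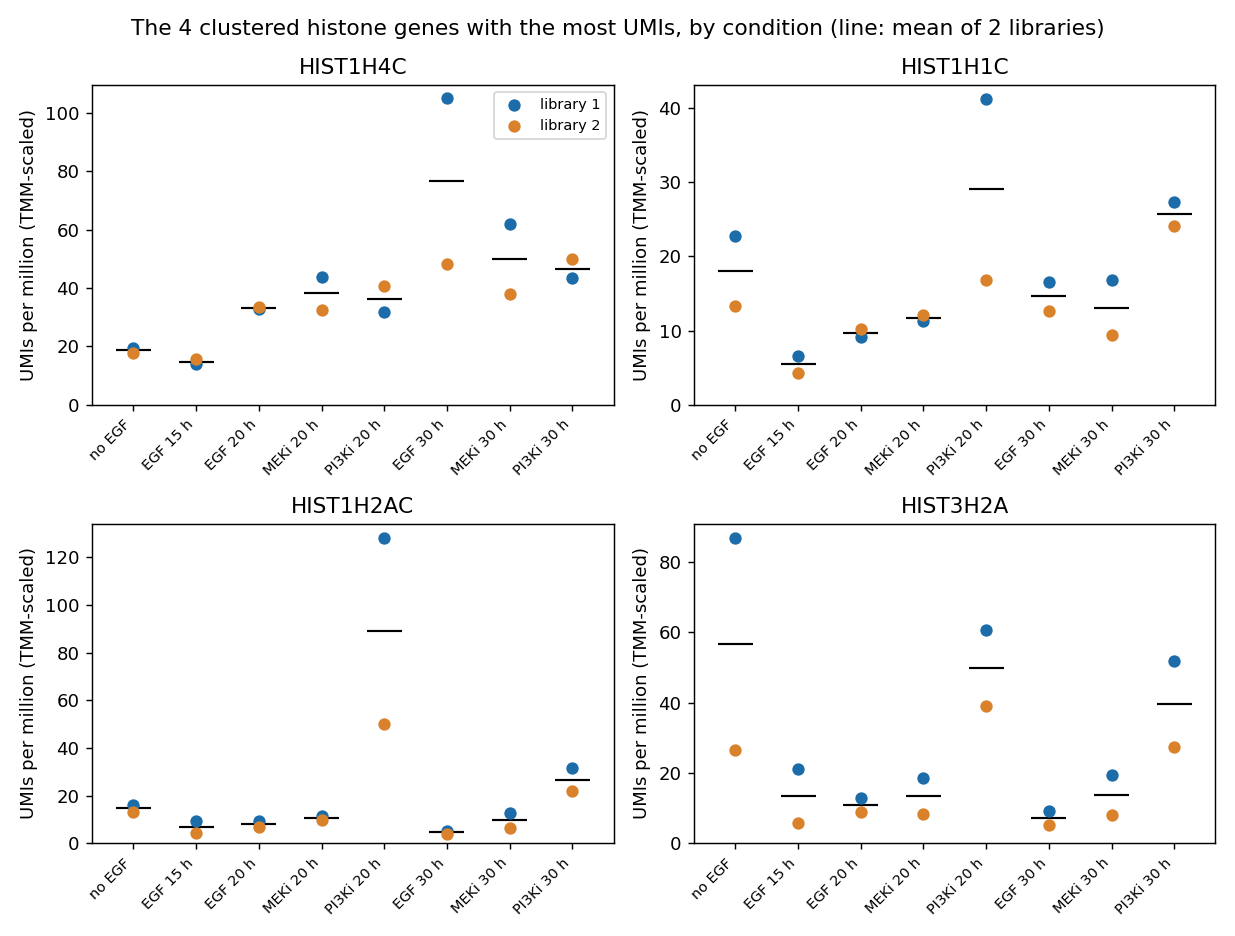
CPM (TMM-scaled) of HIST1H4C, HIST1H1C, HIST1H2AC and HIST3H2A in each of the 8 conditions, with 1 point per library and a line at their mean. HIST1H2AC stands at 127.9 and 50.0 with the PI3K inhibitor (PI3Ki) at 20 h, while the mean of HIST1H4C is highest with EGF alone at 30 h. In library 2 HIST1H4C stands at 48.0 there and at 49.8 with the PI3K inhibitor at 30 h.

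With PI3K inhibition from 15 h to 20 h, 7 of the 18 tested members were higher and 0 lower than with EGF alone at 20 h. They were H2A and H2B genes, HIST1H1C alone of the H1 genes and HIST1H4H alone of the H4 genes. Of all 11147 genes tested 11.4% were higher and 11.9% lower. HIST1H2BJ and HIST1H4H, both among the 7, would not have passed the low-count filter without the samples with this inhibitor, so the count is partly set by the filter. The other 5 of the 7 also passed without these samples. HIST1H2AC, a core histone H2A gene, was at 127.9 and 50.0 CPM in libraries 1 and 2 with the inhibitor and at 9.31 and 7.03 CPM without it. Both inhibitor values lay far above both EGF values, and its log2 change was 3.50 (SE 0.18, adjusted p = 6.03e-21). HIST3H2A, an H2A gene of the small cluster on chromosome 1 (228456979 to 228457873), was at 60.7 and 39.1 CPM against 12.8 and 8.95 CPM. It rose by 2.23 on the log2 scale (SE 0.18, adjusted p = 5.72e-14), again with no overlap.

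The linker histone gene HIST1H1C was at 41.3 and 16.8 CPM with the inhibitor and at 9.15 and 10.2 CPM with EGF alone, a log2 change of 1.72 (SE 0.22, adjusted p = 4.86e-08). The other 4 H1 genes were not called. The H2B genes HIST1H2BC, HIST1H2BJ and HIST1H2BD rose from low levels. HIST1H2BC, which shares its start region with HIST1H2AC, was at 15.2 and 7.92 CPM against 0.482 and 1.28 CPM, a log2 change of 3.97 (SE 0.53, adjusted p = 8.37e-08). HIST1H2BJ was at 19.1 and 3.46 CPM against 0.963 and 1.28 CPM (log2 change 3.55, adjusted p = 1.47e-07). HIST1H2BD was at 15.5 and 2.97 CPM against 0.963 and 2.56 CPM, so its log2 change of 2.78 (adjusted p = 7.43e-06) came almost wholly from library 1. The same holds for HIST1H4H, an H4 gene, at 6.18 and 1.98 CPM against 0.482 and 1.92 CPM (log2 change 2.20, adjusted p = 5.54e-03). HIST1H4C, the H4 gene with the most UMIs, was at 31.8 and 40.6 CPM against 32.9 and 33.6 CPM and was not called. Without library 1 HIST1H2AC and HIST3H2A alone stayed called, 2 of 18, and without library 2 there were 10 calls that included all 7. Median depth was 11742 and 9945 UMIs per cell with the inhibitor and 14270 and 11508 with EGF alone, and with cells thinned to 6000 UMIs each 5 members were called, all of them among the 7.

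**Figure D2:**
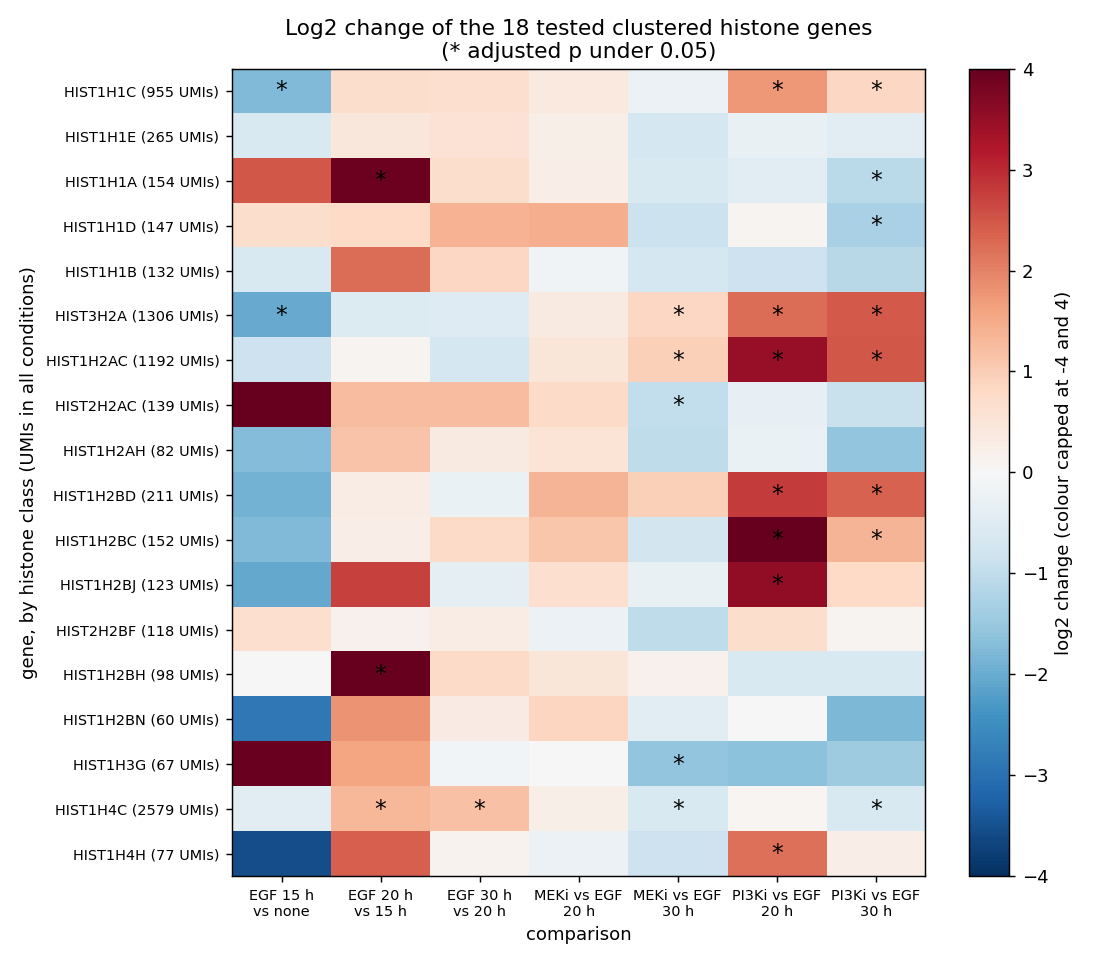
Log2 change of the 18 tested clustered histone genes (rows, by class, with their UMIs) in 7 comparisons (columns), coloured up to 4 in either direction, with a star where the adjusted p was under 0.05. The column of the PI3K inhibitor at 20 h has 7 stars, all on rises, and that of the MEK inhibitor (MEKi) at 20 h has 0.

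Genes under the low-count filter were also examined in a fit without it, which called 11 of the 57 members with the PI3K inhibitor at 20 h. The share of all genes called in that fit is not given here, so the 11 cannot be set against it. The 11.4% higher given above belongs to the filtered fit. The 4 more were HIST2H4A (log2 change 4.85, adjusted p = 8.90e-05), HIST1H2AE (2.86, adjusted p = 0.0431), HIST1H2BK (2.18, adjusted p = 0.0172) and HIST1H3H (2.43, adjusted p = 0.0368). HIST2H4A had 18 and 4 UMIs with the inhibitor and 1 and 0 with EGF alone. HIST2H4A and HIST2H4B are near-identical copies, so how reads were split between them is uncertain. HIST1H3H had 14 and 0 UMIs against 4 and 0, which places its call on library 1. The 39 members that did not pass the filter summed to 24.7 and 18.3 CPM with the inhibitor and to 9.31 and 16.3 CPM without it.

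**Figure D3:**
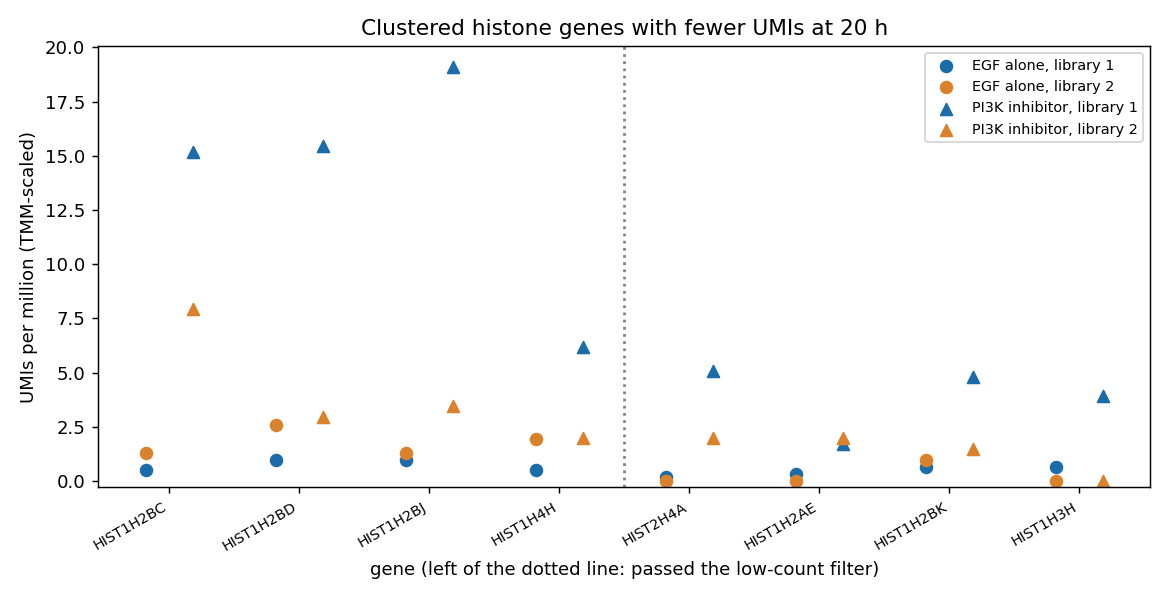
CPM (TMM-scaled) at 20 h of 4 tested genes and of 4 genes under the low-count filter, with circles for EGF alone, triangles for the PI3K inhibitor and colour for the library. Library 1 lies above library 2 for 7 of the 8 genes with the inhibitor, by the widest gap at HIST1H2BJ (19.1 and 3.46).

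Annotated transcript ends and the PI3K calls can be set side by side as a description. Of the 57 genes 22 have an annotated transcript with more than 1 exon or with a poly(A) signal near its end, and they gave 935 and 239 UMIs with the PI3K inhibitor at 20 h against 199 and 116 with EGF alone. Of these 22 genes 10 were tested and 6 called, where 11.4% of all genes tested were higher. HIST1H2BJ and HIST1H4H, both among the 6, would not have passed the low-count filter without the samples with this inhibitor. The other 35 genes, with 1 exon and no such signal, gave 334 and 166 UMIs against 379 and 225, and of them 8 were tested and HIST1H1C was called. Some of these 35 have short models without a stem-loop, such as 411 bases for HIST1H3B and 642 for HIST1H1C. A missing signal there need not mean that the gene lacks one, so the split depends on the annotation. HIST1H2AC gave 455 and 101 of the 935 and 239 UMIs, and HIST3H2A gave 216 and 79. Cell numbers differed between these conditions (332 and 187 against 438 and 233), so the sums are to be read within a condition. Total UMIs differed as well, at 3940026 and 1938814 with the inhibitor against 6186462 and 2757433 with EGF alone. The smaller sums of the 35 genes with the inhibitor therefore do not show a fall.

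Starts of 10 pairs of members on opposite strands lie 219 to 357 bases apart, pointing away from each other. The pair of HIST1H2BC and HIST1H2AC rose together with the PI3K inhibitor. HIST1H2BJ had 68 and 7 UMIs with the inhibitor at 20 h while its neighbour HIST1H2AG had 7 and 1. HIST3H2A had 216 and 79 UMIs while HIST3H2BB, 234 bases away, had 0 and 0. The differences between neighbours were not tested.

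By 30 h, 15 h after the PI3K inhibitor, 5 members were higher and 3 lower than with EGF alone. Over all genes 19.7% were higher and 20% lower, so the share of members called is near that of all genes. HIST3H2A was at 52.0 and 27.5 CPM against 9.23 and 5.24 CPM, a log2 change of 2.44 (SE 0.19, adjusted p = 1.38e-15). HIST1H2AC was at 31.6 and 21.9 CPM against 5.28 and 4.06 CPM (log2 change 2.50, SE 0.23, adjusted p = 7.74e-13). Neither gene overlapped between the groups. HIST1H2BD was at 7.96 and 4.72 CPM against 0.791 and 1.35 CPM (log2 change 2.37, adjusted p = 9.20e-05) and HIST1H1C at 27.4 and 24.1 CPM against 16.6 and 12.7 CPM (log2 change 0.83, adjusted p = 3.91e-04). HIST1H2BC was at 3.98 and 3.09 CPM against 0.791 and 1.69 CPM (log2 change 1.36, adjusted p = 0.0449).

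The genes that fell at 30 h with the PI3K inhibitor were HIST1H1D and HIST1H1A, linker histones, and HIST1H4C. HIST1H1D was at 1.74 and 1.63 CPM against 5.54 and 3.21 CPM (log2 change -1.29, adjusted p = 0.0202), and HIST1H1A at 1.74 and 2.28 CPM against 5.01 and 3.89 CPM (log2 change -1.07, adjusted p = 0.0396). HIST1H4C was at 43.5 and 49.8 CPM against 105 and 48.0 CPM, so the groups overlap and its log2 change of -0.60 (adjusted p = 1.98e-03) comes from library 1. Without library 1 it was 0.05 (adjusted p = 0.889), and HIST1H1A, HIST1H1D and HIST1H2BC also lost their calls, which left 4. Without library 2 HIST1H1A, HIST1H1C, HIST1H1D and HIST1H2BC were not called, and without the library block HIST3H2A, HIST1H2AC and HIST1H2BD were the 3 calls. Scaled to library totals, which moves the median of all genes by -0.22 here, 4 members were higher and 8 lower.

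With the MEK inhibitor at 20 h 0 of 18 members were called by edgeR (4.8% of all genes higher, 7.15% lower). DESeq2 also called 0, and 2 members had an unadjusted p under 0.05, HIST1H1D (log2 change 1.44, adjusted p = 0.0522) and HIST1H2BD (1.35, adjusted p = 0.135). HIST1H2AC was at 11.3 and 9.96 CPM and HIST3H2A at 18.6 and 8.45 CPM, against 9.31 and 7.03 and against 12.8 and 8.95 with EGF alone. At 30 h 2 of the 18 members were higher and 3 lower (18.9% and 19% of all genes), so the share of members called is not above that of all genes. HIST1H2AC was at 12.8 and 6.49 CPM against 5.28 and 4.06 CPM (log2 change 0.96, SE 0.28, adjusted p = 4.80e-03) and HIST3H2A at 19.3 and 7.99 CPM against 9.23 and 5.24 CPM (log2 change 0.84, SE 0.23, adjusted p = 2.37e-03). HIST1H2AC did not overlap between the groups, whereas HIST3H2A did.

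HIST1H4C was at 61.8 and 37.8 CPM with the MEK inhibitor at 30 h against 105 and 48.0 CPM, a log2 change of -0.60 (adjusted p = 1.70e-03) with overlapping groups. HIST2H2AC, an H2A gene, was at 1.76 and 2.32 CPM against 5.54 and 3.38 CPM (log2 change -0.98, adjusted p = 0.0451), and HIST1H3G, an H3 gene, at 0.502 and 0.695 CPM against 1.85 and 1.86 CPM (log2 change -1.58, adjusted p = 0.0482). Without library 1 or without the library block 0 of these 5 stayed called. Without library 2 HIST1H2AC, HIST3H2A and HIST1H4C stayed, with DESeq2 HIST1H2AC and HIST3H2A, and scaled to library totals (median of all genes -0.16) 2 members were higher and 5 lower.

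The inhibitors were also set directly against each other. At 20 h 7 of 18 members were lower with the MEK than with the PI3K inhibitor and 0 higher (10.4% and 11.2% of all genes). This comparison and that of the PI3K inhibitor with EGF alone share the PI3K inhibitor samples, without which HIST1H2BJ and HIST1H4H would not have passed the filter. The log2 difference was -3.03 for HIST1H2AC (SE 0.19, adjusted p = 7.25e-18), -1.88 for HIST3H2A (adjusted p = 6.49e-11) and -1.34 for HIST1H1C (adjusted p = 2.06e-05). It was -2.86 for HIST1H2BC, -2.89 for HIST1H2BJ, -2.45 for HIST1H4H and -1.44 for HIST1H2BD. Without library 1 HIST1H2AC and HIST3H2A were the 2 calls, and HIST1H2BD turned to 0.18 (adjusted p = 0.938). At 30 h 5 members were lower with the MEK inhibitor and 0 higher (20.3% and 21.2% of all genes), HIST3H2A by -1.60, HIST1H2AC by -1.53, HIST1H2BC by -2.10, HIST1H2BD by -1.42 and HIST1H1C by -1.06 on the log2 scale. Without library 1 HIST1H2BC (adjusted p = 0.0729) and HIST1H2BD (adjusted p = 0.0871) were not called, and without library 2 HIST1H1C was not (adjusted p = 0.0524).

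In the time course with EGF alone HIST3H2A and HIST1H1C fell between 0 h and 15 h. From unstimulated cells to 15 h 0 of the 18 tested members rose and 2 fell (14.1% and 13.9% of all genes), so the share of members that fell is near that of all genes. HIST3H2A went from 86.9 and 26.5 CPM to 21.0 and 5.68 CPM, a log2 change of -2.03 (SE 0.23, adjusted p = 3.44e-10), with every unstimulated value above every value at 15 h. HIST1H1C went from 22.8 and 13.2 CPM to 6.62 and 4.26 CPM (log2 change -1.75, SE 0.41, adjusted p = 8.77e-04). In library 2 these values rest on 6 and 4 UMIs of HIST3H2A and on 3 and 3 UMIs of HIST1H1C. Without library 1 neither was called (adjusted p = 0.230 and 0.602).

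From 15 h to 20 h 3 members rose and 0 fell (3.44% and 1.66% of all genes). HIST1H4C went from 13.7 and 15.6 CPM to 32.9 and 33.6 CPM, a log2 change of 1.34 (SE 0.26, adjusted p = 2.06e-04), and its groups did not overlap. HIST1H1A had 1 UMI at 15 h and 25 at 20 h over both libraries, 17.6-fold higher relative to depth, with a 95% exact (Clopper-Pearson) counting interval of 2.89 to 724. HIST1H2BH had 0 UMIs at 15 h and 13 at 20 h, at least 3.06-fold higher against a floor of 3 counts over the group. Their adjusted p values were 5.25e-03 and 0.0220. Without library 2 HIST1H4C was the 1 call, and without library 1 or without the block there were 0. From 20 h to 30 h HIST1H4C alone rose, with 0 lower (4.51% and 3.27% of all genes), to 105 and 48.0 CPM. Its log2 change was 1.18 (SE 0.17, adjusted p = 1.03e-06), larger in library 1 (1.66) than in library 2 (0.51), and it was not called without library 1 (0.52, adjusted p = 0.225) or without the block (adjusted p = 0.0529).

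Whether an inhibitor's effect differed between 20 h and 30 h was tested as an interaction. For the MEK inhibitor 0 members had a higher and 2 a lower effect at 30 h (2.92% and 2.66% of all genes), HIST1H4C with a difference of -0.83 (adjusted p = 0.0457) and HIST1H1D with -2.30 (adjusted p = 0.0240). For the PI3K inhibitor 0 of 18 were called (2.4% of all genes higher, 3.25% lower), and 6 had an unadjusted p under 0.05.

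Levels were next set against S phase within each condition. Cells of a library and condition were ranked by their share of UMIs from 43 S phase genes, none of them a histone, and cut into 3 equal parts, of which the lowest is called S-low and the highest S-high. HIST1H4C stood higher in S-high cells in both libraries at 20 h and 30 h in all 6 conditions, for example 48.4 and 46.5 against 14.0 and 17.4 CPM (here of unscaled totals) with EGF alone at 20 h. HIST1H2AC stood the other way: with the PI3K inhibitor at 20 h it was at 193.2 and 112.5 CPM in S-low cells and at 24.2 and 8.80 in S-high cells. HIST3H2A was at 81.9 and 77.9 against 23.6 and 19.1 in the same cells. The ranking used no histone gene, but n is 2 libraries and no test was made of S-high against S-low cells.

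**Figure D4:**
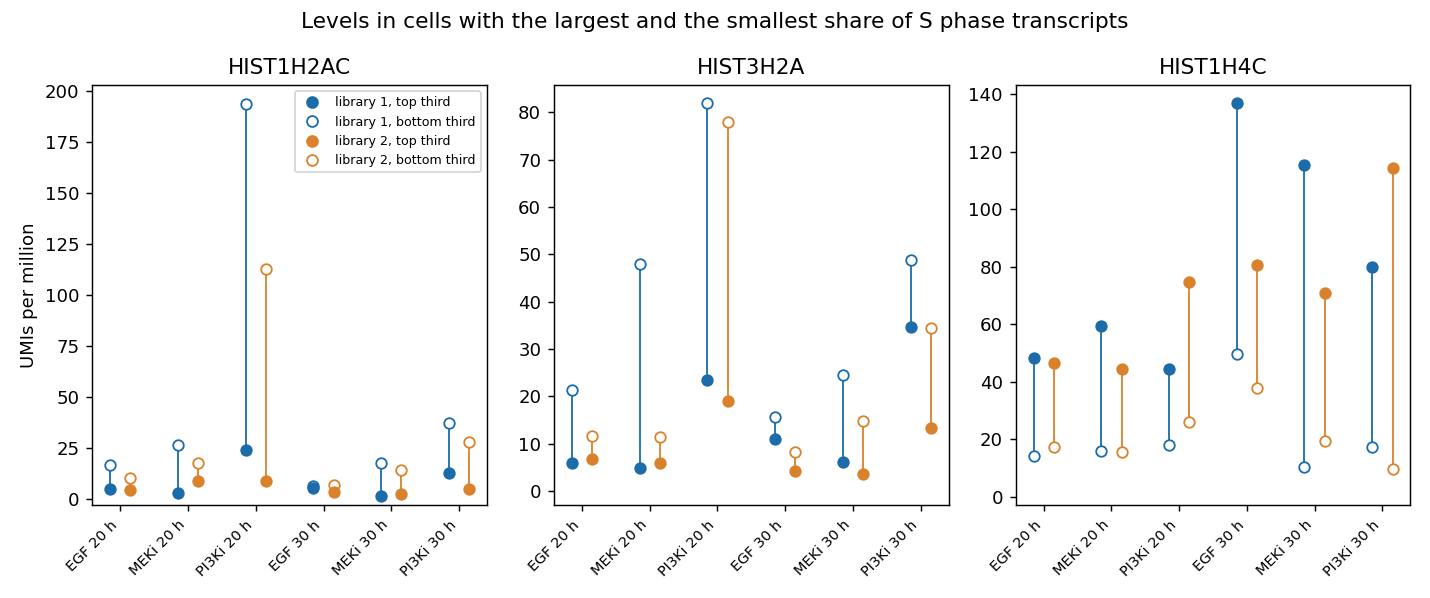
CPM of HIST1H2AC, HIST3H2A and HIST1H4C in S-low cells (open circles) and S-high cells (filled circles) of 6 conditions, with a line joining the values of a library. Open circles stand above filled ones for HIST1H2AC and HIST3H2A in all 6 conditions and below them for HIST1H4C.

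With EGF alone at 30 h all 5 linker histone genes stood higher in S-high cells in both libraries. HIST1H1A was at 7.87 and 9.32 CPM in S-high cells and at 1.84 and 1.77 in S-low cells, and HIST1H1E was at 11.8 and 11.2 against 2.77 and 3.54. HIST1H1D was at 9.45 and 7.45 against 0.922 and 0.591, HIST1H1B at 3.94 and 9.94 against 1.84 and 0.591 and HIST1H1C at 26.8 and 24.2 against 7.37 and 10.04. With the PI3K inhibitor at 20 h HIST1H1C was at 43.4 and 21.6 in S-low cells and at 20.1 and 17.6 in S-high cells, the other order, while HIST1H1A was at 0.819 and 0 against 3.46 and 5.87 and HIST1H1E at 0.819 and 2.88 against 4.16 and 10.3. All 57 genes together were at 456.7 and 310.1 in S-low cells against 156.5 and 181.9 in S-high cells with the PI3K inhibitor at 20 h. With EGF alone at 30 h the order was the opposite, at 107.8 and 86.2 against 272.3 and 231.1. In these S-low cells the 57 genes gave 117 and 146 UMIs in all. The lowest values of single genes given here therefore rest on very few UMIs.

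The inhibitor comparisons were repeated on S-low cells alone and on S-high cells alone, over the 12 sums of the 20 h and 30 h conditions, a choice made after seeing the data. In S-low cells 7 members could be tested, and 6 of them were higher with the PI3K inhibitor at 20 h (5.61% of 8666 genes). This count too may be partly set by the low-count filter. Over all cells HIST1H2BJ, among the 6, passed it only through the samples with this inhibitor at 20 h. HIST1H2AC rose by 3.61 on the log2 scale (SE 0.21, adjusted p = 4.64e-15) and HIST3H2A by 2.33 (SE 0.26, adjusted p = 5.01e-08), as much as over all cells. HIST1H2BC, HIST1H2BJ, HIST1H2BD and HIST1H1C were the others, by 5.68, 3.90, 3.45 and 2.28. In S-high cells 2 of 9 tested members were higher (5.86% of 9263 genes), HIST1H2AC by 2.14 (adjusted p = 1.24e-03) and HIST3H2A by 2.04 (adjusted p = 3.15e-04). At 30 h HIST1H4C was the 1 member that fell in S-low cells, by 1.49 with the PI3K inhibitor (adjusted p = 5.36e-05, 13.7% of genes lower) and by 1.15 with the MEK inhibitor (adjusted p = 5.06e-04, 15.1% of genes lower). In S-high cells its log2 change was 0.12 with the PI3K inhibitor (adjusted p = 0.690) and -0.09 with the MEK inhibitor (adjusted p = 0.759) at 30 h, and the difference between the parts was not tested. Equal parts of each condition need not be at equal points of the cycle, since the median S phase share of S-low cells was 440 and 652.8 CPM with the PI3K inhibitor at 20 h and 739.6 and 1301 with EGF alone.

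Per cell the counts were small. With every cell thinned to 6000 UMIs, and shallower cells left out (16 and 30 with the PI3K inhibitor at 20 h), the mean of HIST1H2AC was 0.699 and 0.287 UMIs per cell with the PI3K inhibitor at 20 h and 0.0829 and 0.0647 with EGF alone. The highest cell held 8 and 5 UMIs against 2 and 1. All 57 genes together had a median of 1 UMI per cell in both libraries with the inhibitor and of 0 with EGF alone, and a 90th percentile of 5 and 3 against 2 and 2.

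Genes that process histone mRNA, carry histones or mark the cell cycle were taken from lists. These hold 23 genes of histone mRNA processing and the histone locus body, 23 histone chaperones, 12 replication-independent histones (11 tested), 43 S phase genes (42 tested) and 54 G2/M genes (53 tested). The lists overlap: SLBP is also an S phase gene, as is the chaperone MCM2, and CENPA is also a G2/M gene. Counts from different lists are therefore not separate observations. With the PI3K inhibitor at 20 h 0 processing genes were higher and 10 lower, with a list median of -0.31 on the log2 scale against 0.00 for all genes. For this and the other lists in this comparison, 11.4% of all genes tested were higher and 11.9% lower. SLBP, the stem-loop binding protein, fell by 0.33 (adjusted p = 0.0208), ERI1, an exonuclease of the histone mRNA end, by 1.04 (adjusted p = 3.23e-04) and LSM10, a subunit of the U7 particle that guides the cut, by 0.96 (adjusted p = 6.45e-07). NPAT was at -0.66 (adjusted p = 0.0575) and was not called in any comparison. Of the chaperones 0 were higher and 10 lower, among them CHAF1A, a subunit of the assembly factor CAF-1 (log2 change -1.24, adjusted p = 3.05e-08). Of the S phase genes 0 were higher and 36 lower, and of the G2/M genes 0 and 40.

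Replication-independent histones moved both ways with the PI3K inhibitor at 20 h, 4 higher and 4 lower. The linker histone variants H1FX (log2 change 1.56, adjusted p = 3.55e-15) and H1F0 (1.56, adjusted p = 0.0123) rose, and the centromeric H3 variant CENPA fell by 1.96 (adjusted p = 5.50e-07). H1FX was at 152.4 and 141.1 CPM against 46.1 and 56.3 CPM, with no overlap. At 30 h with this inhibitor 19.7% of all genes tested were higher and 20% lower. There 2 processing genes were higher and 11 lower, 1 chaperone higher and 14 lower, and 36 S phase and 52 G2/M genes lower with 0 higher. Of the 11 tested replication-independent histones 5 were higher and 6 lower at 30 h. Among the lower, H2AFZ, which encodes the variant H2A.Z, fell by 1.76 (adjusted p = 3.59e-20).

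With the MEK inhibitor at 20 h SLBP was the 1 processing gene called (log2 change -0.33, adjusted p = 0.0329), 0 chaperones were called and 2 S phase genes were lower. Of all genes tested 4.8% were higher and 7.15% lower at 20 h. Of the G2/M genes 4 were higher, among them HMMR (log2 change 0.96, adjusted p = 1.38e-05), and LBR was the 1 lower (-0.74, adjusted p = 1.15e-04). Of the replication-independent histones H2AFJ, an H2A variant, rose by 0.44 (adjusted p = 9.64e-03). At 30 h 12 processing genes, 10 chaperones and 36 S phase genes were lower and 0 higher, while of the G2/M genes 10 were higher and 6 lower. Of the 11 tested replication-independent histones 2 were higher and 5 lower. Of all genes tested 18.9% were higher and 19% lower at 30 h. In the EGF time course SLBP rose by 1.05 from 0 h to 15 h (adjusted p = 1.79e-05) and fell by 0.64 from 20 h to 30 h (adjusted p = 8.89e-06). From 15 h to 20 h 34 of 42 S phase and 42 of 53 G2/M genes were higher and 0 lower (3.44% and 1.66% of all genes). From 20 h to 30 h 1 S phase gene was higher and 26 lower, while 50 G2/M genes were higher and 0 lower (4.51% of all genes higher, 3.27% lower). HIST1H4C rose in both intervals.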

How the data were processed

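Transcripts of 2 pooled MCF10A libraries were counted, 1 per biological replicate, with 8 tag-marked conditions each. The deposited tables hold UMI counts, not normalised by the authors, for each gene symbol in each cell. The submitters' processing notes name Cell Ranger 3.0.2, Seurat and GRCh38; no label states the annotation release, the strand setting or how cells were filtered. Conditions came from the deposited tag annotation.

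Counts were summed per library and condition (16 sums) and filtered with filterByExpr, scaled by TMM and fitted in R 4.3.3 by the quasi-likelihood method of edgeR 4.0.16, with the library as a block. Adjusted p is Benjamini-Hochberg over 11147 genes, threshold 0.05. CPM uses the TMM-scaled library size, except in S-low and S-high cells, where it uses unscaled totals. The fit was tested on simulated data. The block follows from the pooling: over 28 pairs of conditions of 1 library, deviations of 4706 genes from their means correlated with a median r of 0.588 (0.28 to 0.677). Alternatives were DESeq2 1.42.0, other scalings, no filter, no block, cells thinned to 6000 UMIs and leaving out a library.

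Members at 20 CPM or more are given per library, other tested members where called, the rest by UMIs; genes of the lists are named where called, at most the 4 largest per list, with SLBP and NPAT always. Members and lists were chosen with earlier results of these data known. Of 54 G2/M symbols 1 was not matched. One cell type marker is not reported here. GENCODE v29, whose release may differ from the authors', gave positions and RefSeq gave start regions.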

Additional observations from a re-analysis of the deposited data

Results flagged for a closer look

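The effect of the MEK inhibitor against EGF alone differed between 20 h and 30 h for 2 clustered histone genes, tested as an interaction in edgeR. For HIST1H4C the difference of the log2 effects was -0.83 (SE 0.26, adjusted p = 0.0457), with -1.17 in library 1 and -0.29 in library 2. For HIST1H1D, a linker histone gene with 147 UMIs in all, it was -2.30 (SE 0.65, adjusted p = 0.0240), with -1.93 and -1.61 per library. HIST1H1D stood at 6.21 and 3.02 CPM with the inhibitor at 20 h against 1.60 and 2.24 CPM with EGF alone, and at 4.52 and 1.04 CPM against 5.54 and 3.21 CPM at 30 h. Neither was called without the library block or without library 1 (HIST1H4C -0.31, HIST1H1D -2.04). Leaving out library 2 kept HIST1H4C and not HIST1H1D (adjusted p = 0.315). The effect of the PI3K inhibitor was not shown to differ between the 2 times for any of the 18 members by edgeR or DESeq2 (0 called, 6 at an unadjusted p under 0.05, HIST1H2AC among them with adjusted p = 0.0781).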

How the results depend on the processing

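Of 40 calls of single members, DESeq2 size factors and library totals kept 39 each, no filter on low counts 39, leaving out library 2 30 and leaving out library 1 11, with 2 reversed (HIST1H4C, PI3K inhibitor at 30 h, -1.27 to 0.048 leaving out a library; HIST1H2BD, MEK against PI3K inhibitor at 20 h, -2.002 to 0.18). DESeq2 kept 24 of the 35 calls for which it gave an adjusted p, thinned cells 24 of 29, and the fit without the replicate block 20. Members called moved by over 1.5 times as follows. For EGF at 20 h against 15 h there were 3, but 1 by DESeq2, 0 without the replicate block, 1 thinned and 0 to 1 leaving out a library; for 15 h against 0 h 2, but 0 to 2 leaving out a library; for 30 h against 20 h 1, but 3 with no filter, 0 without the block and 0 to 1 leaving out a library. For the MEK inhibitor at 20 h there were 0, but 1 with no filter; at 30 h 5, but 2 by DESeq2, 0 without the block, 3 thinned, 0 to 3 leaving out a library, 3 in S-low and 0 in S-high cells. For the PI3K inhibitor at 20 h there were 7, but 11 with no filter, 2 in S-high cells and 2 to 10 leaving out a library; at 30 h 8, but 4 by DESeq2, 3 without the block, 4 thinned, 4 to 6 leaving out a library, 5 in S-low and 1 in S-high cells. For the MEK against the PI3K inhibitor at 20 h there were 7, but 4 thinned, 2 in S-high cells and 2 to 9 leaving out a library; at 30 h 5, but 3 in S-high cells and 3 to 5 leaving out a library. For the interaction of the MEK inhibitor with time there were 2, but 0 by DESeq2, 0 without the block, 0 thinned and 0 to 1 leaving out a library, and for that of the PI3K inhibitor 0, but 1 with library totals, 3 with no filter and 0 to 2 leaving out a library. Beyond the smaller number of members tested in thinned cells (7) and in S-low (7) and S-high (9) cells, the cause was not tested. Library totals moved the median of all genes by -0.22 to 0.21. A library was left out of the compared conditions only, which then hold 1 sum each and are assumed to vary like the other conditions. The 39 members that did not pass the filter had at most 71 UMIs each over all cells, and the log2 changes of the 4 called without it with the PI3K inhibitor at 20 h had SEs of 0.70 to 1.05.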
